A study of Drosophila melanogaster with 15 samples.

Results

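A set of 47 loci was expressed in at least 1 genotype and not, or hardly, in at least 1 other, among 5 genotypes of adult male *Drosophila melanogaster*. A locus here is 1 row of the deposited tables, with a gene name, a position and an FPKM value (fragments scaled to the length of the transcript and to the number mapped) in each library. A genotype was called on at a locus when FPKM was 5 or more in all 3 of its libraries, and off when FPKM was under 0.5 in all 3. Of 14124 rows, 10776 had a gene name and 10350 of these had the status OK in all 15 libraries. Both thresholds were met by 65 of the 10350, or 0.628%. Of the 65, 11 were left out for names starting with Lys, Muc, CR or mt:, and 7 others for lying in windows on 3R, 3L and 2L, which left the 47. The FPKM of the genotypes thus chose the members, so differences between genotypes at these loci are a description and carry no test.

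RNA came from pools of about 10 whole males, 1 week old, homogenised together, with 1 library for each genotype and condition. The mutants were labelled *Dg* (Dg[O55]/Dg[O86]), *Dys* (homozygous for the deficiency Df(3R)Exel6184, which had been outcrossed), *Syn1* (Df(3L)BSC450 over deltaSyn1[5-2]) and *Nos* (Df(2L)BSC230 over deltaNos15), and control males were CantonS/w[1118]. The conditions were unstressed (5 days at 25°C), temperature stress (5 days at 33°C) and metabolic stress (4 days on yeast paste without sugar), and groups of 3 values are given in that order. The genotypes were built from different stocks, by crosses or, for *Dys*, as a homozygous deficiency, and each stands for 1 such combination, so background strain and mutation cannot be told apart, and a pair of alleles or a deficiency may also carry other sequence differences. An SD with n = 3 is the spread over conditions, since no group has a replicate.

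Dystroglycan (Dg), dystrophin (Dys) and syntrophin (Syn1) form the dystrophin glycoprotein complex, which links the extracellular matrix to the cytoskeleton, and in vertebrate muscle syntrophin anchors nitric oxide synthase (Nos). Laboratory strains of flies differ by transposon insertions, deletions and duplications, and such differences can silence a gene or swap one transcript end or exon for another in a single stock.

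The targeted genes were read first. The row of *Dys* alone was listed at 0 in all *Dys* libraries and averaged 27.3 FPKM in control, and the *Syn1* row was listed at 0 in all *Syn1* libraries and averaged 6.59 in control. A row shared by *CG6255* and *Dys* averaged 86.4 FPKM in *Dys* libraries and 63.3 in control, so only the row of *Dys* alone checks that label. The row shared by *CG6700* and *Nos* averaged 22.7 FPKM in *Nos* libraries and 39.8 in control. Its *Nos* values reached 27.2, above the *Dys* (24.9) and *Syn1* (26.1) libraries under temperature stress, but within each condition it was lowest in *Nos*. The row of *Nos* alone was listed at 0 in all *Nos*, *Dg* and *Dys* libraries and averaged 0.0876 in control. It could not check the *Nos* label. The *Dg* row averaged 15.1 FPKM in the libraries labelled *Dg*, against 13.6 in control. That label could not be checked by this gene, and *Dg* below means the libraries labelled *Dg*. Relative depth differed little, with 0.799 to 1.12 times the depth of the unstressed control library. Summed female yolk and eggshell markers (7 of 13 with a row) were 13.5 to 22.9 FPKM in every library, against 1108 to 2210 for testis markers (4 of 8) and 141 to 1857 for accessory gland markers (3 of 8).

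The 47 members fell into 18 patterns by the genotypes that were off. Of these, 27 were off in 1 genotype, 11 in 2, 7 in 3 and 2 in 4. *Dg* was off at the most members, 24, and *Dys* at 17, *Syn1* at 14, *Nos* at 8 and control at 15. Members off in 1 genotype alone numbered 11 in *Dg*, 8 in *Dys*, 4 in *Syn1*, 0 in *Nos* and 4 in control. These orders depend on the thresholds: with on at 10 FPKM, 4 members were off in *Dg*, 8 in *Dys*, 7 in *Syn1*, 2 in *Nos* and 4 in control, and off in 1 genotype alone were 1 in *Dg* and 5 in *Dys*. With no demand on status, 8 loci were off in *Nos* alone and 9 in control alone. Among all 10350 loci, *Dg* also had the most that were off, 18.7%, and the other genotypes had 15.1% to 17.2%.

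*Dys* was on at 27 members, more than any other genotype, and 17 of these were on in *Dys* alone. This too depends on the thresholds: with on at 10 FPKM, 6 members were on in *Dys* alone and 5 in *Dg* alone. Across all alternatives the number on in *Dys* alone was 4 to 30. Over all 10350 loci *Dys* had the lowest share that was on, 40.5%, against 41.8% to 42.3% in the other genotypes. The highest mean over 3 libraries was in *Dys* at 25 of the 47, which in part restates the members on in *Dys* alone. The same share over all loci is not given here. *Syn1* was on at 17 members, *Nos* at 11, *Dg* at 9 and control at 12. No member was off in all 4 mutants and none was on in all 4, so by these thresholds no member separated the mutants as a group from control. The ranges could still part them, as at *Treh*, with at most 1.15 FPKM in the mutants and at least 6.61 in control.

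**Figure D1:**
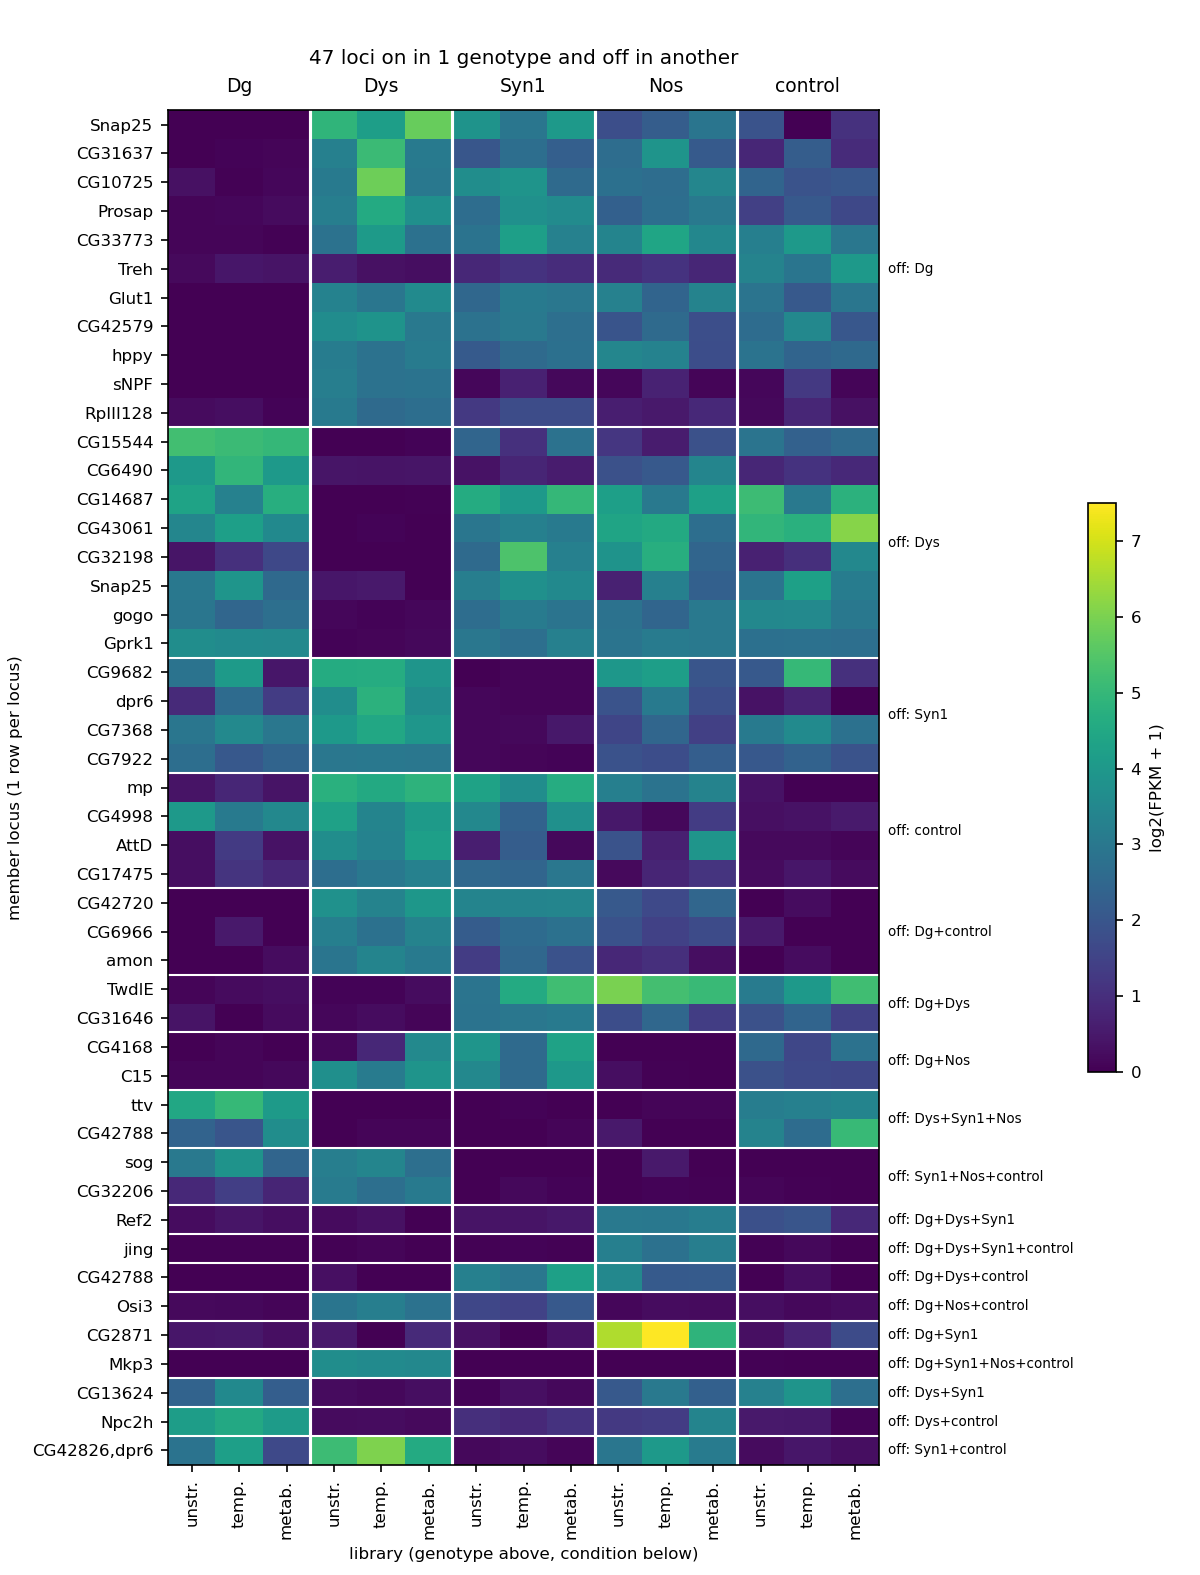
Heat map of log2(FPKM + 1) of the 47 members (rows, grouped by the genotypes that are off, as written at the right) in the 15 libraries (columns, mutants left and control right, with the 3 conditions of each genotype side by side). Dark blocks of 3 are off genotypes, and the largest groups are the 11 loci off in *Dg* alone and the 8 off in *Dys* alone.

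**Figure D2:**
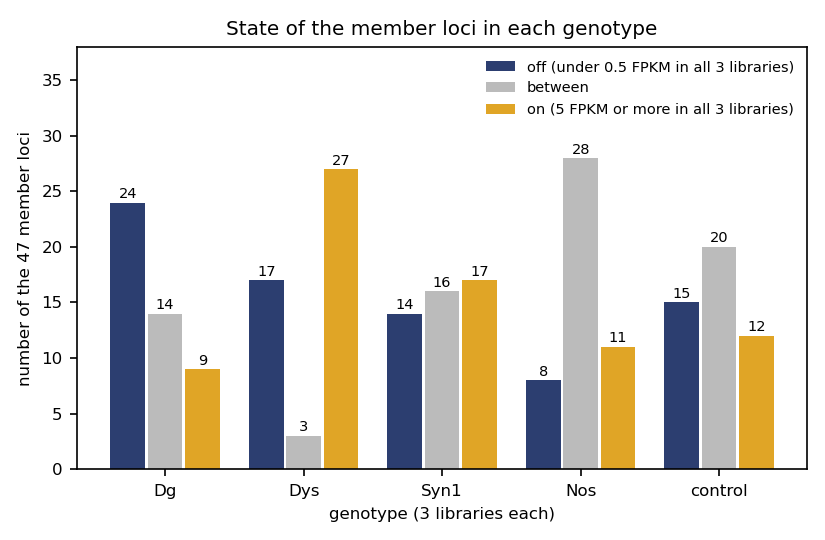
Number of the 47 members (vertical axis) that were off, between the thresholds or on in each genotype. *Dg* has the tallest bar for off (24), *Dys* the tallest for on (27) with only 3 between, and *Nos* the tallest for between (28).

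Some members lay close to a threshold. Just inside the on threshold, the lowest library of the on genotype was 5.01 FPKM at *RpIII128*, 5.05 at *CG4168* and 5.07 at *CG32198*, and just outside it were *CG14861* (4.91), *CG6788* (4.85) and *CG8960* (4.80). Just inside the off threshold, the highest library of an off genotype was 0.441 at *CG4998*, 0.431 at *CG6966* and 0.420 at the *Snap25* row off in *Dys*, and just outside it were *CG17839* (0.538), *CG42581* (0.539) and *CG4221* (0.634). Of the 234 library values in off genotypes, 91 were listed at 0, and 6 members were at 0 in all of theirs.

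Most members were not a plain on or off choice in all genotypes, since 39 of the 47 had at least 1 genotype between the thresholds. These 81 genotype means had a median of 28.7% of the mean of the on genotypes. Of them, 21 were under 10% of the on mean, 38 were 10% to 50%, 21 were 50% to 100% and 1 was above it. The 8 members with every genotype on or off were *CG33773*, *CG14687*, *CG43061*, *Gprk1*, *TwdlE*, *ttv*, *jing* and *Mkp3*.

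A gene can stand on several rows, so a member row can be off while another row of the same gene is not. Of the 47 members, 15 were the only row of their gene with status OK, against 5690 of all 10350 loci (55.0%). For 12 of the 15 the listed span was at least 90% as long as the gene in the RefSeq table (Release 6), 2 were shorter than that and 1 was not matched. Only lengths were compared, not positions, so this does not show that a row covers its gene. At several of the 12, such as *CG14687* and *Npc2h*, the listed span was many times longer than the gene. These 15 are described first, because the gene has no other row with status OK. In whole flies, fewer cells that express a gene and less RNA in each cell cannot be told apart.

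Among genes with a single row, 4 were off in *Dg* alone. *CG33773* (3R, 26860859 to 26862093), a gene with no given name, had 0.0772, 0.0738 and 0.0256 FPKM in *Dg*, against 8.52, 15.4 and 6.92 in control. The other mutants had 6.08, 16.1 and 6.0 (*Dys*), 6.26, 18.0 and 8.88 (*Syn1*) and 9.51, 20.2 and 10.1 (*Nos*). All 12 libraries outside *Dg* were far above the *Dg* libraries, and the highest of each of these genotypes was under temperature stress. The nearest rows on both sides differed by less than 2-fold between *Dg* and the other genotypes.

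*CG42579* (X, 20398708 to 20399093) was listed at 0 in all 3 *Dg* libraries, against 5.23, 10.4 and 3.10 FPKM in control. The other mutants had 11.6, 13.5 and 7.19 (*Dys*), 6.12, 7.25 and 5.71 (*Syn1*) and 2.86, 5.08 and 2.50 (*Nos*). This locus lies on the X chromosome, away from the arm of *Dg*. Control overlapped each of the other mutants, and *Nos* lay below *Dys*.

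*CG10725* (3L, 13430687 to 13433670), which encodes a protein with chitin-binding domains, had 0.27, 0.0322 and 0.101 FPKM in *Dg* and 4.39, 2.82 and 3.13 in control. It was on in *Dys* (7.43, 56.2 and 7.01), *Syn1* (11.8, 13.8 and 5.05) and *Nos* (5.81, 5.35 and 9.97). The *Dys* library under temperature stress stood far above the next highest library of any genotype (13.8). *CG10140*, whose row lists the same position, was between 0.211 and 2.12 in all 15 libraries.

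*RpIII128*, the second largest subunit of RNA polymerase III, was on in *Dys* only (2R, 7910626 to 7938281). It had 0.172, 0.219 and 0.0572 FPKM in *Dg*, against 0.110, 0.741 and 0.259 in control. The other mutants had 7.42, 5.01 and 5.54 (*Dys*), 1.38, 2.32 and 2.37 (*Syn1*) and 0.537, 0.436 and 0.832 (*Nos*). Its control values overlapped those of *Dg* and *Nos*, so *Dys* and, less so, *Syn1* stood apart from the other 3. RNA polymerase III is needed in every cell. Its row lists a span shared with 4 rows of other genes, and how fragments were divided among them is not given in the sources used here.

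The 3 single-row genes off in *Dys* alone were at or close to 0 there. *CG14687* (3R, 6617845 to 6625319), a gene with no given name, had 0, 0 and 0.0239 FPKM in *Dys*, against 34.6, 7.19 and 27.0 in control. It was on in all other mutants, with 19.2, 8.89 and 25.2 in *Dg*, 23.4, 15.6 and 31.0 in *Syn1* and 17.8, 7.24 and 18.1 in *Nos*. The lowest library of each genotype other than *Dys* was the one under temperature stress.

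The row next to *CG14687* went the other way. *CG14692*, 0.486 kb to the right, had 70.9, 84.6 and 65.0 FPKM in *Dys*, against 7.18, 2.85 and 5.35 in control. In the other mutants it had 4.97, 3.62 and 5.61 (*Dg*), 4.59, 4.13 and 4.29 (*Syn1*) and 4.97, 3.46 and 4.20 (*Nos*). All 3 *Dys* libraries were at 65.0 or more and the other 12 at 7.18 or less. The log2 difference on log2(FPKM + 1) was 3.75, the largest among the 94 rows nearest to members. On the other side, the nearest row differed by less than 2-fold.

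*CG43061* (3R, 3875203 to 3877733) was also on in all genotypes but *Dys*. It had 0, 0.0475 and 0.0170 FPKM in *Dys*, 9.79, 17.6 and 10.7 in *Dg*, 6.71, 8.70 and 7.55 in *Syn1*, 20.0, 22.5 and 5.56 in *Nos* and 29.5, 26.1 and 69.0 in control. The control libraries were all above the others, which ranged from 5.56 to 22.5. Both *CG14687* and *CG43061* lie on 3R, the arm that carries the *Dys* deficiency, far to the left of it in the listed positions.

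*CG32198* (3L, 18519973 to 18531348) was listed at 0 in all *Dys* libraries. It varied widely where it was expressed, with 5.07, 41.7 and 8.57 FPKM in *Syn1*, 13.5, 25.2 and 4.49 in *Nos*, 0.345, 1.04 and 2.06 in *Dg* and 0.604, 1.03 and 10.3 in control. Only *Syn1* passed the on threshold, and its SD over conditions, 20.2, exceeded its mean of 18.4 (n = 3).

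*CG9682* was the single-row gene off in *Syn1* alone (3R, 26075135 to 26080880). It had 0, 0.0792 and 0.0783 FPKM in *Syn1*, against 3.30, 31.5 and 1.05 in control. It had 6.30, 16.0 and 0.379 in *Dg*, 23.6, 24.2 and 14.0 in *Dys* and 14.6, 17.6 and 2.91 in *Nos*. The row of *CG18404* at the same position was highest in *Syn1*, with 56.6, 77.4 and 67.8, and had 17.5 to 30.5 in the other mutants, against 27.8, 19.4 and 38.4 in control. The strand of the reads is not stated, so fragments of overlapping genes may not be separable.

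Among the loci off in control alone, 3 were single-row genes. *AttD* (3R, 13450921 to 13451818) encodes an attacin, an antibacterial peptide of the immune response. It had 11.7, 8.94 and 17.6 FPKM in *Dys*, 0.211, 1.41 and 0.28 in *Dg*, 0.553, 3.67 and 0.121 in *Syn1* and 2.77, 0.566 and 14.2 in *Nos*, against 0.134, 0.139 and 0.0793 in control. Only *Dys* was high in all 3 conditions, and *Nos* reached that level in the metabolic library alone. *AttD* was the only member among 18 loci of the immune families by name (names starting with IM and a digit, Att, Cec, Dpt, Dro, Def or PGRP).

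*CG4998* (3L, 16334625 to 16335206), which RefSeq lists under the synonym SPH66, was high in *Dg* (15.6, 7.53 and 10.4 FPKM), *Dys* (18.6, 9.36 and 16.0) and *Syn1* (10.4, 4.12 and 12.7). It had 0.405, 0.129 and 1.52 in *Nos*, against 0.243, 0.302 and 0.441 in control. *Nos* and control overlapped and the other 3 genotypes lay above both. Its listed span was 9.33% as long as the gene, so the row stands for at most a part of it.

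*CG17475* (3R, 12951556 to 12956149), which RefSeq lists under the synonym SP131, had 5.60, 7.04 and 8.78 FPKM in *Dys* and 4.82, 4.46 and 6.87 in *Syn1*, against 0.155, 0.373 and 0.160 in control. It had 0.21, 1.2 and 0.793 in *Dg* and 0.147, 0.728 and 1.19 in *Nos*. *CG31269*, at the same position, ran the other way, with 1.13, 0.543 and 6.98 in *Dys* and 9.62, 7.19 and 31.0 in control. *CG31266*, the nearest row to the right, averaged 2.36 in *Dys* and 9.02 in control. These are neighbouring genes of the serine protease family, whose copies can share reads, so the split between them is uncertain.

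*TwdlE* (2L, 7856822 to 7860816), a cuticle protein of the Tweedle family, had the highest on mean of the single-row genes. It was off in *Dg* (0.0757, 0.157 and 0.224 FPKM) and *Dys* (0.0422, 0.0442 and 0.18). It was on in *Syn1* (6.33, 22.8 and 36.1), *Nos* (62.8, 37.1 and 32.6) and control (7.64, 15.8 and 35.5). *lectin-28C*, a C-type lectin listed at the same position, was also lowest in these mutants, with means of 0.0944 in *Dg* and 0.153 in *Dys*, 2.36 in *Syn1*, 3.71 in *Nos* and 4.13 in control. It missed the on threshold.

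*Npc2h* (3R, 26568325 to 26633958), of the Niemann-Pick type C2 family of sterol-binding proteins, was on in *Dg* only. It had 16.9, 21.9 and 16.4 FPKM in *Dg*, against 0.437, 0.402 and 0.0624 in control. The other mutants had 0.165, 0.195 and 0.136 (*Dys*), 1.03, 0.835 and 1.13 (*Syn1*) and 1.35, 1.5 and 9.36 (*Nos*). The *Nos* library under metabolic stress was the only one outside *Dg* above 1.5.

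*CG42720* and *Osi3* were the remaining single-row genes. *CG42720* (3R, 20488770 to 20537856) had 12.8, 9.29 and 14.7 FPKM (*Dys*), 9.43, 9.5 and 9.66 (*Syn1*) and 3.25, 2.16 and 4.53 (*Nos*), and was off in *Dg* (0, 0 and 0) and in control (0, 0.178 and 0). *Osi3* (3R, 2042963 to 2043930), of the Osiris family of insect membrane proteins, was on in *Dys* only (6.58, 8.24 and 6.14), on a row 40.9% as long as the gene. It had 2.02, 1.81 and 3.30 in *Syn1*, under 0.2 in all *Dg* and *Nos* libraries and 0.216, 0.112 and 0.191 in control. The neighbouring *Osi4* was on in every genotype, so the family was not off as a whole.

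**Figure D3:**
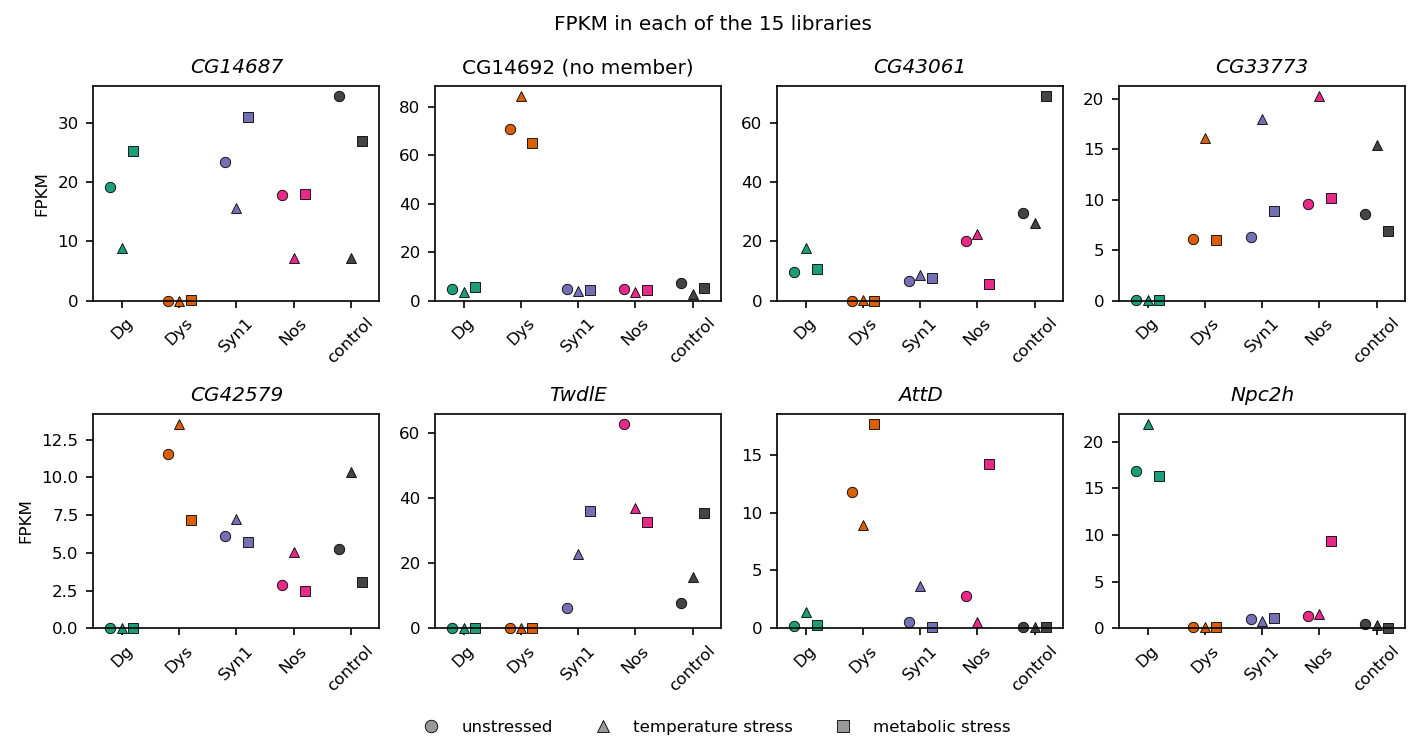
FPKM (vertical axes, linear and each with its own scale) in the 15 libraries for 7 members that are the only row of their gene and for *CG14692*, the row next to *CG14687*. Points are single libraries, with mutants left and control right and the condition given by the shape. *CG14687* is near 0 only in *Dys*, where *CG14692* reaches 65.0 to 84.6.

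The other 32 members were 1 of several rows of their gene, with a median of 2.5 other rows and at most 11. At 22 of the 32, another row of the gene averaged 5 FPKM or more in the genotypes where the member was off. The highest other row differed by less than 2-fold between off and on genotypes at 25 of the 32, with a median log2 difference of 0.01. It was at least 2-fold lower in the off genotypes at 3 and at least 2-fold higher at 4. Summed over all rows of the gene, FPKM in the off genotypes was a median of 49.4% of that in the on genotypes, and at 2 of the 32 it was under 10%. FPKM of rows of different length do not add up to the FPKM of a gene, so these sums are only a guide. For most of these members, off thus refers to a row and not to the gene.

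**Figure D4:**
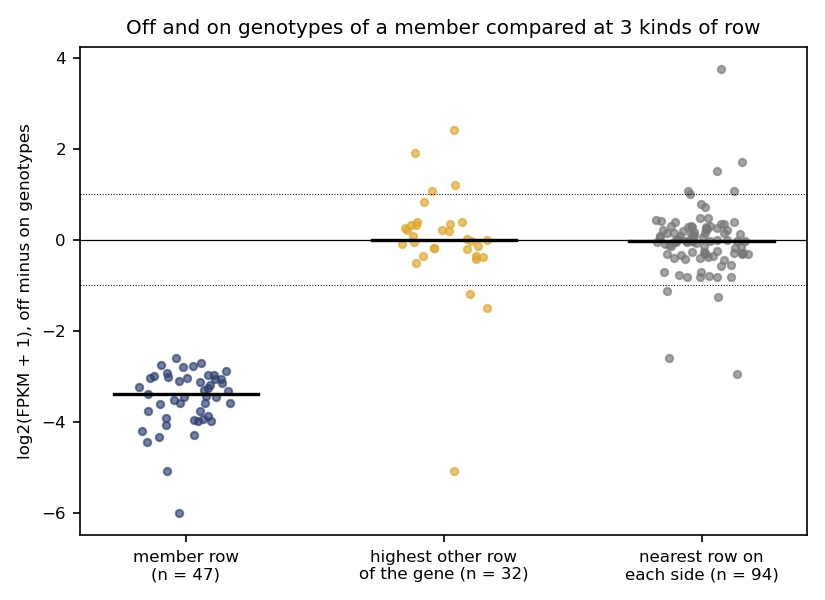
Difference between off and on genotypes on log2(FPKM + 1) (vertical axis) at the 47 member rows, at the highest other row of the same gene (32 members) and at the 94 rows nearest to members. Points are rows, bars are medians and dotted lines mark 2-fold. Medians are -3.39 at the members, which the rule fixed, and 0.01 and -0.02 at the other kinds of row.

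Of the loci off in *Dg* alone, 7 belonged to genes with other rows, and each had a row that stayed high in *Dg*. *Treh* (2R, 16952880 to 16978621) encodes trehalase, which splits the main sugar of fly blood. Its member row had 0.141, 0.376 and 0.308 FPKM in *Dg* and 0.206 to 1.15 in the other mutants, against 9.27, 6.61 and 15.7 in control, the only genotype in which it was on. Its other row averaged 71.1 in *Dg* and 43.3 to 67.0 in the other mutants, against 80.7 in control.

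*Glut1* (3L, 949613 to 985696), a glucose transporter, *hppy* (2R, 15066228 to 15116175), a kinase of the Ste20 family, and *sNPF* (2L, 19958563 to 20056418), the precursor of the short neuropeptide F, were listed at 0 in all *Dg* libraries on their member rows. *Glut1* had 9.07, 6.67 and 11 FPKM in *Dys* and 3.27 to 9.19 in *Syn1*, *Nos* and control. Its highest other row averaged 28.6 in *Dg*, 21.2 to 30.1 in the other mutants and 23.4 in control. *hppy* had 7.80, 6.11 and 7.66 in *Dys* and 2.44 to 9.92 in the other 3, beside an other row at 15 to 18.0 in every genotype. *sNPF* was on in *Dys* alone (8.30, 6.08 and 6.26), with 0.0804 to 1.38 in *Syn1*, *Nos* and control and an other row at 12.7 to 17.7. At *Glut1* the ranges of all genotypes but *Dg* overlapped, at *hppy* those of *Nos* and control overlapped all but *Dg*, and at *sNPF* it was *Dys* that stood apart.

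*Snap25*, a SNARE protein of synaptic vesicle release, had 5 rows at 1 position (3L, 24067084 to 24292449), and 2 of them were members with different patterns. The row off in *Dg* was listed at 0 there and had 28.9, 17.3 and 52.8 FPKM in *Dys* and 13.5, 6.69 and 15.5 in *Syn1*. That row had 2.47, 3.67 and 6.47 in *Nos*, against 2.77, 0 and 1.09 in control, so control was also low and at 0 under temperature stress. The row off in *Dys* had 0.376, 0.420 and 0 in *Dys*, against 6.37, 18.2 and 7.95 in control, and was also on in *Syn1* (8.15, 12.5 and 10.9). The highest row of the gene was 24.5 to 34.4 on average in every genotype, so the gene as a whole was expressed throughout.

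*Prosap* (2R, 9977659 to 10033226), the Shank-family scaffold of the postsynapse, had 0.0810, 0.0865 and 0.169 FPKM in *Dg*, against 1.67, 3.25 and 2.07 in control. It had 8.20, 22.9 and 12.4 in *Dys* and 5.47, 12.5 and 11.3 in *Syn1*. *CG31637* (2L, 6466041 to 6527114) had 0, 0.0626 and 0.0653 in *Dg* and 8.68, 33.5 and 7.36 in *Dys*, against 0.750, 3.64 and 0.888 in control. Their highest other rows averaged 8.49 and 65.0 in *Dg*, and 11.9 and 44.8 in control.

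Of the loci off in *Dys* alone, 5 belonged to genes with other rows. *Gprk1* (2R, 209608 to 358759), a kinase of G protein-coupled receptors, had 0.0485, 0.0814 and 0.119 FPKM in *Dys* and 5.71 to 11.7 in the other mutants, against 5.80, 5.88 and 5.69 in control. Its other row ran the other way, with 32.8, 25.9 and 28.0 in *Dys* and 14.1 to 17.5 in the other mutants, against 15.6, 16.0 and 19.0 in control. The sum of both rows in *Dys* was 123% of that in the on genotypes. The ranges of *Dys* and of the other genotypes did not overlap on either row.

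*gogo* (3L, 20241018 to 20290127), a receptor for axon guidance in the visual system, had 0.0956, 0.0533 and 0.0937 FPKM in *Dys*, against 10.3, 10.6 and 6.96 in control. Its highest other row averaged 29.3 in *Dys* and 24.5 in control. *CG15544* (3R, 26653656 to 26667896) had 0, 0 and 0.0482 in *Dys* and 36.9, 33.3 and 30.8 in *Dg*, against 6.40, 4.07 and 5.04 in control. Its highest other row ran the other way, with a mean of 3.75 in *Dys*, 1.03 in *Dg* and 1.42 in control, but the sum over rows in *Dys* was 10.9% of that in *Dg*. *CG6490* (3R, 22287137 to 22360903), which is *plum* in RefSeq and encodes a protein of the immunoglobulin superfamily, had 0.337, 0.308 and 0.331 in *Dys*, 15.4, 29.7 and 15.2 in *Dg* and 0.766, 1.14 and 0.810 in control. Its highest other row averaged 3.06 in *Dys*, 0.944 in *Dg* and 9.93 in control.

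Of the loci off in *Syn1* alone, *CG7922* (3R, 17306949 to 17313600), *Fancm* in RefSeq, a helicase of DNA repair, was lower on both of its rows. The member row had 0.106, 0.0735 and 0.0558 FPKM in *Syn1*, against 3.16, 4.13 and 2.82 in control. The other row had 2.98, 3.33 and 3.04 in *Syn1* and 7.31 to 11.4 in the other mutants, against 8.92, 10.9 and 7.48 in control. No library of *Syn1* overlapped another genotype on either row.

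*CG7368* (3L, 11555544 to 11603549) had 0.102, 0.127 and 0.401 FPKM in *Syn1*, against 7.43, 11 and 5.95 in control. It had 6.63, 10.7 and 6.88 in *Dg*, 15.4, 21.8 and 14.5 in *Dys* and 1.97, 4.51 and 1.66 in *Nos*. Its other row was under 0.3 on average in every genotype, and the gene sum in *Syn1* was 3.02% of that in the on genotypes, the lowest of the 32.

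*dpr6* (3L, 10092815 to 10121707), a cell-surface protein of the immunoglobulin superfamily at synapses, had 2 member rows at 1 position, 1 of them listed jointly with *CG42826*. The joint row had 0.108, 0.199 and 0.0819 FPKM in *Syn1*, 34.0, 65.8 and 23.1 in *Dys*, 6.31, 17.7 and 2.16 in *Dg* and 6.66, 15.6 and 7.66 in *Nos*, against 0.17, 0.361 and 0.22 in control. The row of *dpr6* alone had 0.0930, 0.0774 and 0.0630 in *Syn1*, 11.8, 27.3 and 11.9 in *Dys* and 0.292, 0.664 and 0 in control. Both rows were highest in *Dys* and lowest in *Syn1* and control, while the highest *dpr6* row at another position averaged 7.66 to 9.18 in the mutants and 4.39 in control.

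The fourth locus off in control alone was *mp* (3L, 7026837 to 7046718), or *Mp* in RefSeq, a collagen of the XV/XVIII type in basement membranes. Its member row had 26.0, 22.4 and 27.8 FPKM in *Dys*, 18.8, 11.7 and 24.1 in *Syn1*, 8.49, 6.27 and 9.26 in *Nos* and 0.307, 0.734 and 0.306 in *Dg*, against 0.293, 0 and 0 in control. *Dg* lay close to control here and the other mutants far above. The other row averaged 7.93 to 12.4 in the mutants and 8.88 in control.

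Several members were off in *Dg* together with control or with a second mutant. *amon* (3R, 22523416 to 22539944), the prohormone convertase that matures neuropeptides, had 0, 0 and 0.181 FPKM in *Dg*, 6.59, 9.54 and 7.43 in *Dys* and 0, 0.18 and 0 in control, beside an other row at 9.72 to 15 in every genotype. *C15* (3R, 17338650 to 17339432), a homeobox transcription factor, was off in *Dg* (0.0749, 0.0715 and 0.112) and *Nos* (0.223, 0.0355 and 0), and high in *Dys* (12.2, 7.61 and 13.7) and *Syn1* (10.2, 4.99 and 15.1), with 2.64, 2.16 and 2.03 in control. The *C15* member row is 6.10% as long as the gene and the other row of *C15* was at most 1.39 in all libraries.

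Of the other members of this kind, *CG31646*, *DIP-theta* in RefSeq and an immunoglobulin protein that binds Dpr proteins, was off in *Dg* and *Dys* and on in *Syn1* (6.19, 6.83 and 7.38 FPKM), with an average of 22.6 to 49.0 on its highest other row. *CG4168* was off in *Dg* and *Nos* and on in *Syn1* (14.1, 5.05 and 18.8), against 4.96, 2.05 and 6.16 in control, which overlapped *Syn1*. In *Dys* it reached 10.7 under metabolic stress, against 0.0882 in the unstressed library. *CG6966* was off in *Dg* (0, 0.432 and 0) and control (0.431, 0 and 0) and on in *Dys* (8.45, 5.94 and 9.25).

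*CG6966* and *CG42788* lie side by side on 3R (10903951 to 10921438 and 10921608 to 10973317) and hold 3 members with 3 patterns. 1 row of *CG42788* was off in *Dg*, *Dys* and control and on in *Syn1* (8.63, 6.78 and 18.3 FPKM), and another was off in *Dys*, *Syn1* and *Nos*, with 4.22, 2.92 and 11.7 in *Dg* and 9.28, 5.23 and 32.1 in control. A row of *CG6966* that is no member had 223, 6.27 and 328 in *Syn1*, 75.6, 3.45 and 22.3 in *Nos* and at most 9.53 in *Dg* and *Dys*, against 387, 7.21 and 379 in control. Rows of this stretch thus differed by genotype in several directions at once.

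At 4 members the mutants split in other ways. *ttv* (2R, 10414009 to 10475432), an exostosin that builds heparan sulfate chains, had 21.8, 31.3 and 16.0 FPKM in *Dg* and at most 0.0813 in *Dys*, *Syn1* and *Nos*, against 8.14, 8.58 and 9.42 in control. Another *ttv* row averaged 5.53 to 7.51 in the mutants and 5.24 in control. *sog* (X, 15494487 to 15531552), an extracellular antagonist of BMP signalling, had 7.20, 13.3 and 4.49 in *Dg* and 8.18, 9.69 and 5.67 in *Dys*, 0, 0.427 and 0 in *Nos* and 0 in all *Syn1* and control libraries. *CG13624* (3R, 20382792 to 20487772), *REPTOR* in RefSeq, a transcription factor downstream of the TORC1 kinase, was off in *Dys* (0.156, 0.116 and 0.204) and *Syn1* (0.0457, 0.240 and 0.111), against 8.85, 13.9 and 5.71 in control. *CG32206* (3L, 19401040 to 19402282) was on in *Dys* only (7.69, 5.74 and 7.36) and at most 0.123 in *Syn1*, *Nos* and control. Each of these genes had another row that differed by less than 2-fold between the off and on genotypes.

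At a last group of members, 1 genotype was on against 2 to 4 that were off. *Mkp3* (3L, 19052332 to 19079620), a phosphatase of MAP kinase signalling, had 11.8, 11 and 10.3 FPKM in *Dys* and 0 in every other library except the unstressed control (0.0384). *jing* (2R, 2388559 to 2434282), a zinc finger transcription factor, had 8.52, 5.88 and 8.28 in *Nos* and at most 0.119 elsewhere. *Ref2* (2L, 12633707 to 12646468), a factor of RNA export, had 7.15, 7.0 and 8.06 in *Nos* and at most 0.401 in the other mutants, against 2.57, 2.97 and 0.833 in control. The highest other rows of *Mkp3* and *jing* averaged 3.26 to 6.07 in all genotypes, whereas those of *Ref2* were under 1, so only *Ref2* was low as a gene in the off genotypes (10.8% of *Nos*).

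*CG2871* (X, 4669904 to 4671474) had the highest values of all members, and its 2 rows at 1 position traded places in *Nos*. The member row had 96.0, 177 and 28.7 FPKM in *Nos* and at most 0.844 in the other mutants, against 0.241, 0.662 and 2.28 in control. The other row had 18.0, 29.6 and 68.2 in *Nos* and 88.5 to 284 in the other mutants, against 97.0, 179 and 63.6 in control. In *Nos* under metabolic stress the order of the rows was the reverse of the other 2 *Nos* libraries.

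When FPKM was summed over all rows that share a gene name and the same rule was applied, 17 loci passed, a choice made after seeing the data. They were the 15 single-row members and 2 rows of *Sox21a*, a transcription factor that is no member by single rows. None of the 32 members with other rows passed, so of the members the on or off pattern held for the summed gene at the single-row ones only, where the sum is the row itself.

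The members were spread over all large arms, with 6 on 2L, 7 on 2R, 13 on 3L, 18 on 3R and 3 on X. As shares these are 12.8%, 14.9%, 27.7%, 38.3% and 6.38%, beside 18.9%, 19.5%, 19.1%, 21.9% and 18.0% of all loci in the scope of the rule. Of the 11 loci off in *Dg* alone, 4 were on 2R, the arm of *Dg*, and 6 on the second chromosome (38.4% of loci in scope). Of the 8 off in *Dys* alone, 4 were on 3R, the arm of *Dys*, and 7 on the third chromosome (41.0%). Of the 4 off in *Syn1* alone, 2 were on 3L, the arm of *Syn1*, and 4 on the third chromosome. These counts leave out the windows around the targeted genes on 3R, 3L and 2L, and whether a locus is linked to a mutation was not tested.

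No pair of members within 100 kb shared an off pattern. The share of such pairs among all loci is not given here, so nothing is read from their number. The 8 pairs that close were rows of 1 gene (*dpr6*, *Snap25* and *CG42788*), *CG6966* with both rows of *CG42788*, *CG42720* with *CG13624*, *CG7922* with *C15*, and *Npc2h* with *CG15544*. In the last pair both loci were off in *Dys* and on in *Dg*, and they are 19.7 kb apart, but *Npc2h* was also off in control.

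Most rows beside a member differed by less than 2-fold between its off and on genotypes on log2(FPKM + 1). Rows near 0 can hardly differ on this scale, so they could not show whether they shared the member's difference. The row left of the *Glut1* member averaged 0.0112 FPKM in *Dg* and 0.649 in *Dys*, a log2 difference of only -0.70. A nearest row could be another row of the same gene, as at *CG4168*, *Prosap*, *ttv*, *jing*, *Glut1* and *C15*, and 1 row could stand beside several members. At the 94 nearest rows, 2 for each member at a median distance of 2.91 kb, the log2 difference between off and on genotypes had a median of -0.02, and 4 were at least 2-fold lower and 6 at least 2-fold higher. For the same contrasts over all 10350 loci, a median of 2.53% were 2-fold lower and 2.29% were 2-fold higher. *CG14692* was the farthest from 0, followed by the *CG6966* row beside both rows of *CG42788* (-2.94 and -2.59).

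By name, the members held no cytochrome P450, glutathione transferase, UDP-glycosyltransferase, odorant-binding, Jonah protease, Turandot or accessory gland genes. Each of these families made up at most 0.542% of the loci in scope, so nothing is read from their absence. Names of CG and digits only made up 23 of the 47 (48.9%), beside 42.0% of all analysed loci. With rows that list several genes included, CG numbers made up 24 of the 47 (51.1%), beside 50.5% of the loci in scope, so no excess is read from them. Members with a neural role by textbook knowledge included *Snap25*, *sNPF*, *Prosap*, *gogo*, *amon*, *dpr6* and *CG31646*, and each of these 7 genes had another row that was on in some genotypes where the member was off. These 7 were picked after their values were seen, and no test was made of them.

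The difference between conditions was not a criterion of the rule, but the rule used the stressed libraries too, since a member had to stay on or off in all 3 conditions. Loci that cross a threshold under stress were thereby left out. Without the temperature stress libraries 75 loci met the rule, but leaving out any condition loosens the rule and cannot lower the count. The stress effect was tested with limma on log2(FPKM + 1) over all 10350 loci, with genotype and condition as terms and the 5 genotypes as repeats of each stress. Under temperature stress, 7 of the 47 members were higher and 2 lower at an adjusted p under 0.1 (Benjamini-Hochberg over all loci). This is 14.9% and 4.26% of the members, beside 13.8% and 12.3% of all loci, and since the rule limits how far a member can move, nothing is read from these shares. At an unadjusted p under 0.05 there were 13 members (27.7%), beside 32.9% of all loci. Off genotypes leave little room for change and lie in the same fit.

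The clearest of the 7 was *CG33773*, with a log2 change of 0.89 ± 0.18 (SE, adjusted p = 0.00827, limma). Stressed over unstressed libraries, its log2 difference was -0.00 in *Dg*, where it was off, 1.27 in *Dys*, 1.39 in *Syn1*, 1.01 in *Nos* and 0.79 in control. It was thus higher in each of the 4 genotypes in which it was on. *CG31637* (1.04 ± 0.26, adjusted p = 0.0216), *dpr6* (0.88 ± 0.21, adjusted p = 0.0196) and *Prosap* (0.70 ± 0.18, adjusted p = 0.0258) were likewise higher in each of the 4 genotypes where they were not off, but *Prosap* lost the call without *Dys* (adjusted p = 0.103). The *Snap25* row off in *Dys* (1.10 ± 0.31, adjusted p = 0.0348), *CG7368* (0.50 ± 0.15, adjusted p = 0.0455) and *CG13624* (0.58 ± 0.20, adjusted p = 0.0664) were also higher, but each lost the call when 1 or more of *Dg*, *Dys*, *Nos* and control, named in the closing section, were left out of the fit.

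The 2 that were lower were *CG14687* and *CG4998*. *CG14687* had a log2 change of -0.98 ± 0.24 (SE, adjusted p = 0.0211, limma), with 0 in *Dys*, where both libraries were at 0, -1.03 in *Dg*, -0.55 in *Syn1*, -1.19 in *Nos* and -2.12 in control. *CG4998* had -0.66 ± 0.21 (adjusted p = 0.0520), with -0.96 in *Dg*, -0.92 in *Dys*, -1.15 in *Syn1*, -0.31 in *Nos* and 0.07 in control, where it was off. The call at *CG4998* was lost without *Dg*, *Dys* or *Syn1* (adjusted p = 0.128 to 0.179), and over all its alternatives the adjusted p reached 1.

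**Figure D5:**
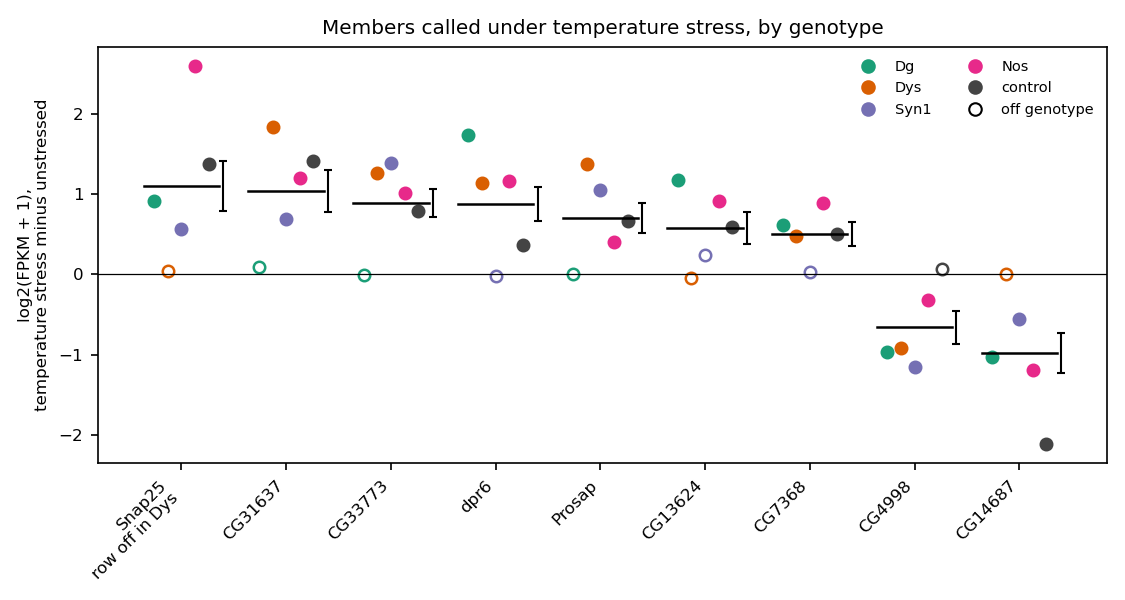
Temperature stress minus unstressed on log2(FPKM + 1) (vertical axis) for the 9 members called by limma. Points are genotypes (open where the member is off), horizontal bars the limma estimate and error bars 1 SE. Filled points are on 1 side of 0 for each member, and open points lie between -0.05 and 0.25.

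Under metabolic stress, limma called 0 of the 47 members in either direction, beside 2.57% of all loci higher and 0.357% lower. At an unadjusted p under 0.05 there were 3 members (6.38%), beside 14.5% of all loci, namely *CG17475* (log2 change 0.50 ± 0.15, SE, adjusted p = 0.135), *Prosap* (0.50 ± 0.18, adjusted p = 0.224) and *CG9682* (-1.22 ± 0.53, adjusted p = 0.320). *CG17475* was 0.44 to 0.93 higher in the mutants and 0.01 higher in control, where it was off. Limma's test against a 2-fold change also called 0 members.

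Of the genes that mark stock backgrounds, only *y* (yellow, body pigment) was analysed here, at its higher row (X, 251094 to 251750). The mutants had 1.61, 1.90 and 1.53 FPKM (*Dg*), 3.36, 3.20 and 2.33 (*Dys*), 1.85, 2.65 and 2.72 (*Syn1*) and 1.56, 0.872 and 2.22 (*Nos*), against 0, 0 and 0.0865 in control. On this row every mutant library was above every control library, but *y* is no member because no genotype reached 5 FPKM. Its lower row (X, 254518 to 255015) did not part them, with 0 to 0.791 FPKM in the mutants, against 0, 0 and 0.340 in control. *w*, *ry* and *v* were not analysed here.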

How the data were processed

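Reads of 100 bases came from poly-A RNA libraries made by random priming. The authors deposited FPKM values with a status and a position for each row, and the tool, build and annotation behind them are not given in the sources used here. The submitters' processing notes name STAR, DESeq2 and BDGP6, which describe counts that were not used. Listed positions differ from the RefSeq Release 6 table by a median of 4113 kb on 2R, so they are given as listed. Named rows whose status was not OK in every library (426) were left out. RefSeq served for names (46 of 47 members matched) and gene lengths.

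FPKM has no counts, so counting intervals are not given, and absolute depth is unknown. Relative depth was read from the steps of values under 0.1 FPKM. Tests used limma 3.58.1 in R 4.3.3 on log2(FPKM + 1), which understates changes of low loci, with 8 residual degrees of freedom, and were tested on simulated data. Other steps used Python 3.11.15, pandas 2.3.3, numpy 2.4.6 and matplotlib 3.10.9.

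Named loci are, for each off pattern, those highest in the on genotypes (up to 6 in patterns of 6 or more members and up to 3 in smaller ones), the 3 just inside each threshold, loci called under stress, and *w*. Others were named after their values were seen. The members and lists were chosen with earlier results of these data known. Alternatives were other thresholds, scaling, summing of rows, filters, pseudocounts, tests and libraries left out. Marker lists for eye, flight muscle, midgut and fat body summed to 82.8 to 426, 228 to 828, 1160 to 9101 and 0.316 to 183 FPKM.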

Additional observations from a re-analysis of the deposited data

Results flagged for a closer look

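Rows without a gene name lay outside the comparisons above, and 31 of 3336 with status OK met both thresholds. Of these, 14 were on in at least 1 mutant and off in control, that is, above the level of the control libraries. By genotype, 18 of the 31 were off in *Dg*, 10 in *Dys*, 14 in *Syn1*, 7 in *Nos* and 14 in control. In the other direction, 1 row on Uextra was off in all 4 mutants, with means from 0 (*Dg*) to 0.413 FPKM (*Dys*), and on in control, with a mean of 6.86 FPKM. Such rows cannot be tied to a gene here.

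*CG43061* differed between genotypes in its metabolic response, with a log2 difference to unstressed of -1.68 in *Nos* and 1.2 in control, each from 1 stressed and 1 unstressed library. The difference was not tested.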

How the results depend on the processing

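The thresholds and the way rows are read set how many loci are members. The 47 members, of which 27 are off in 1 genotype alone, became 16 and 10 with on at 10 FPKM, 138 and 73 with on at 2 FPKM, and 23 and 16 with off under 0.1 FPKM. FPKM summed over overlapping named rows gave 17 and 12, of which 13 loci are members, FPKM summed over rows of a gene (chosen after seeing the data) 17 and 13, and only rows whose gene name is on no other row 15 and 11. Without the temperature stress libraries there were 75 members, with the 27 at 38, and with no demand on status 45 were off in 1 genotype. Over all alternatives the number off in *Dg* was 4 to 79, in *Dys* 5 to 50, in *Syn1* 1 to 38, in *Nos* 1 to 28 and in control 3 to 50, and the order of the genotypes changed with on at 10 FPKM, where *Dys* had more than *Dg*. The other 4 alternatives moved neither number by more than 1.5 times. Limma's test against a 2-fold change called 0 members under temperature stress in place of 9, and 1 locus in all. Leaving out 1 genotype at a time gave 6 to 10 members under temperature stress and 0 to 0 under metabolic stress. Of the 9 members called, *CG31637*, *dpr6*, *CG14687* and *CG33773* lost the call only under the test against a 2-fold change. *Prosap* also lost it without *Dys*, *Snap25* without control, *CG13624* without *Dg*, *Nos* or control, *CG4998* without *Dg*, *Dys* or *Syn1*, and *CG7368* without *Dg*, *Dys*, *Nos* or control. A pseudocount of 0.1 ended the calls of *CG4998*, *CG7368* and *Snap25*. Of 99 alternatives for single members, 24 were weaker and 0 reversed. No paired analysis was possible because each group has 1 library and no replicate numbers, beyond the term for genotype that the stress fit already holds. With 1 pool per genotype and condition, depth and replicates limit every value under 0.5 FPKM.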
